A study of Mus musculus with 179 samples.

Results

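The simple epithelial keratins were followed in single cells of mouse pancreatic organoids. They are 6 named genes, Krt7, Krt8, Krt18, Krt19, Krt20 and Krt23, out of 32100 gene identifiers in the count tables, and out of 37 genes named Krt and a number. They were chosen by name, not by any measured value. The cells came from the exocrine pancreas of wild type C57BL6 mice. Acinar cells, which make digestive enzymes, were freed by digestion of the tissue, enriched on a density gradient and grown for 9 days as organoids in Matrigel, a basement membrane gel. RNA of single cells was then read with Smart-seq3, a plate method that counts molecules through unique molecular identifiers (UMIs). All cells analysed formed 1 group, and the labels tie no cell to an animal or a culture. Cells of 1 group are not replicates, so the values below are descriptions without tests. Their 95% intervals cover counting error only, except that those for shares of cells treat cells as independent draws.

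Keratins are the intermediate filament proteins of epithelia. A filament is built from obligate pairs of 1 acidic type I and 1 basic type II protein, and a keratin without a partner is degraded. KRT8 (type II) and KRT18 (type I) form the basic pair of simple epithelia and are the main keratins of acinar cells. KRT7 (type II) and KRT19 (type I) are typical of ducts. KRT20 is a type I keratin of the intestinal and gastric surface, and KRT23 is a less studied type I keratin. The transcripts therefore fall into 2 type II genes (Krt7, Krt8) and 4 type I genes (Krt18, Krt19, Krt20, Krt23).

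Cells held a median of 165267 UMIs (3258 to 329522), and no pair of cells had identical counts. Levels are counts per 1000000 UMIs (CPM) of the cell, or of all cells pooled. Correlations and detection shares used the cells with at least 40000 UMIs, each thinned to 40000, which left out 18 cells. In 6 cells (Acinar5, Acinar6, Acinar44, Acinar105, Acinar182 and Acinar188) genes of fibroblasts and stellate cells summed to 1000 CPM or more (3920 to 12414), against at most 273.7 CPM in the other cells. These cells are called fibroblast-rich below, and the levels, correlations and spreads of the abundant members are given with and without them. The labelled cell type, acinar, showed little in its own markers, with a median of 130.2 CPM over 15 listed acinar genes and a range from 0 to 226767. The regulator Ptf1a, which defines acinar cells, had UMIs in 1 cell. Some enzyme genes of the list were low but seen in many cells. Ctrb1 (866.4 CPM pooled) had UMIs in 97.2% of cells, Prss2 in 72.1%, Clps in 70.4% and Cpa1 in 37.4%, while Cpb1 had them in 2.23%. The 24 cells numbered 97 to 120 were shallower (median 43006.5 UMIs).

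The type II keratins led. Krt8, pooled over cells, stood at 5350 CPM (5323 to 5377) and ranked 2 among all genes. Its lowest cell had 243.8, its median cell 5313 and its highest 13538 CPM. Every cell had Krt8 UMIs. The 5 lowest cells were fibroblast-rich, and the lowest of the other cells, Acinar52, had 1702 CPM. Krt7 followed at 3524 CPM (3502 to 3546), with 25.04 CPM in the lowest cell, 3315 in the median cell and 12307 in the highest. Krt7 was the more uneven of the pair: its coefficient of variation over cells was 0.652, against 0.422 for Krt8. Among 100 genes with at least 1000 CPM the median coefficient was 0.304, and 14 genes exceeded Krt7 and 29 exceeded Krt8. Without the fibroblast-rich cells the coefficients were 0.623 for Krt7 and 0.381 for Krt8, against a median of 0.301.

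Among the type I keratins Krt18 was the highest. Its pooled level was 2704 CPM (2685 to 2723), with 125.2 CPM in the lowest cell, 2727 in the median cell and 6343 in the highest, Acinar65. Its coefficient of variation, 0.406, was close to that of its partner Krt8. Krt19 had 1769 CPM (1754 to 1785), with 48.2 CPM in the lowest cell, 1482 in the median cell and 5832 in the highest. Its coefficient of variation, 0.660, was close to that of Krt7. Without the fibroblast-rich cells the coefficients were 0.364 for Krt18 and 0.631 for Krt19. Of the 4 abundant members Krt7 and Krt19 therefore varied more than Krt8 and Krt18, while all 4 were above the median of the abundant genes.

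Krt20 and Krt23 were minor and patchy, with the highest coefficients of variation of the members, 2.20 and 1.46. Krt20 had 84.3 CPM (80.97 to 87.8) and ranged from 0 through a median cell of 15.2 to 1126 CPM in Acinar22, and 10 cells held 52.1% of its UMIs. Krt23 had 70.6 CPM (67.5 to 73.8) and ranged from 0 through 30.4 to 480 CPM in Acinar140, and 10 cells held 35.6% of its UMIs. At 100 CPM or more stood 39 cells for Krt20 and 37 for Krt23, of which 18 were the same cells. These cells held 84.4% of all Krt20 UMIs and 67.7% of all Krt23 UMIs. After thinning, Krt20 was detected in 53.5% of the cells outside the fibroblast-rich set (83 cells, exact binomial interval 45.4 to 61.6) and Krt23 in 61.3% (95 cells, 53.1 to 68.997). Among the 6 fibroblast-rich cells the counts were 2 (4.33 to 77.7%) and 1 (0.421 to 64.1%). These intervals treat cells as independent draws, and with 6 cells they are too wide to compare the sets, so no conclusion is drawn from their overlap. Free RNA as a source of single UMIs was not tested.

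**Figure D1:**
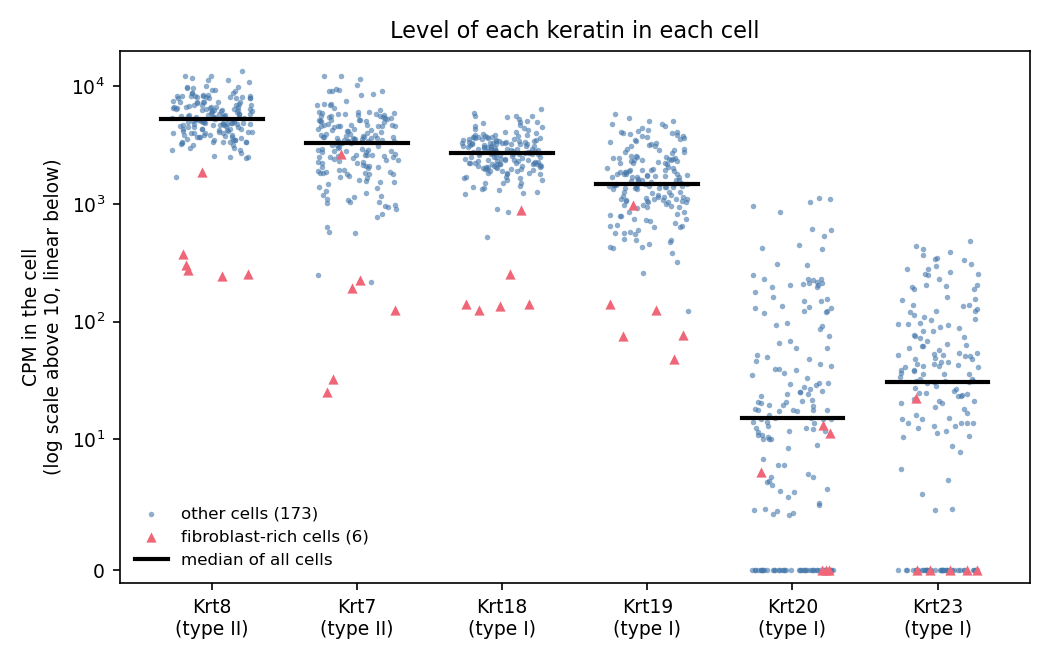
Each point is 1 cell, with its CPM for each keratin on a log axis (linear below 10), triangles for the 6 fibroblast-rich cells and bars for the median over all cells. The medians fall from 5313 for Krt8 to 15.2 for Krt20, and 5 of the 6 triangles lie under all other cells for Krt8 and Krt18.

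The order of levels within a cell was firm in some steps and not in others. Krt8 exceeded Krt18 in every cell, and Krt8 exceeded Krt7 in 88.3% of cells. Krt7 exceeded Krt18 in 66.5% of cells and was below it in 59 cells, with overlapping quartiles (1931 to 4727 and 2077 to 3364 CPM). Krt18 exceeded Krt19 in 85.5% of cells. Krt20 exceeded Krt23 in 70 cells and was below it in 85, so these neighbours had no fixed order, and their pooled order turned in cells numbered from 97 on (71.3 CPM for Krt20 and 88.2 for Krt23). Per length the place of Krt7 depended on which length was taken. Over the longest coding transcript of each gene, reads per kilobase and 1000000 reads were 3426 for Krt8, 2348 for Krt18, 1217 for Krt19 and 1059 for Krt7, whose transcript is 4094 bases long. Over coding bases alone Krt7 came second with 3162, after Krt8 with 4564 and ahead of Krt18 with 2659 and Krt19 with 1586.

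Krt8 has a near-identical copy in the genome. The processed pseudogene Krt8-ps (GENCODE M21, GRCm38, chr7:23357125-23358069, plus strand) matches 941 coding bases of Krt8 (chr15:101996698-102004482, minus strand) at 98.6% identity, with 13 mismatches and 0 gaps. The pair of stretches printed here, 90 bases each, holds 4 of these differences, marked by capitals. The first is chr15:102003998-102004087 on the minus strand and the second is chr7:23357277-23357366 on the plus strand.
Krt8: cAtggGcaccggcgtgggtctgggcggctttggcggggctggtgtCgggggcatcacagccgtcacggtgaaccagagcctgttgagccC
Krt8-ps: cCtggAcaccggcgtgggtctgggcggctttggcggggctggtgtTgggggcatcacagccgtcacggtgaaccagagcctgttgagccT
A read that lies between the differing bases has the same letters in both genes.

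Krt8-ps lies inside an intron of Nlrp4e, a gene of the NLR family (chr7:23301192-23362277, plus strand; intron 23355278 to 23361840). Krt8-ps was counted at 66.2 CPM (63.2 to 69.3) in 93.9% of cells, and Nlrp4e at 717 CPM (707 to 727) in 98.3%. In the median cell, Nlrp4e had 12.2% as many UMIs as Krt8 (quartiles 9.07 to 14.96) and Krt8-ps had 1.08%. Both moved with Krt8, being low in the fibroblast-rich cells (medians 36.3 CPM for Nlrp4e and 2.34 for Krt8-ps) and higher in the others (585 and 61.7). They also shared a low number of reads per UMI, 1.57 for Nlrp4e and 1.54 for Krt8-ps, against 2.91 for Krt8 and 2.32 over all genes. In cells 97 to 120 the median share of Nlrp4e was lower, 5.71% of Krt8, than in the other blocks of 24 numbers (9.30 to 14.6%). Whether reads of Krt8 were assigned to Nlrp4e or Krt8-ps was not tested, and the levels of these 3 genes are uncertain to that extent.

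**Figure D2:**
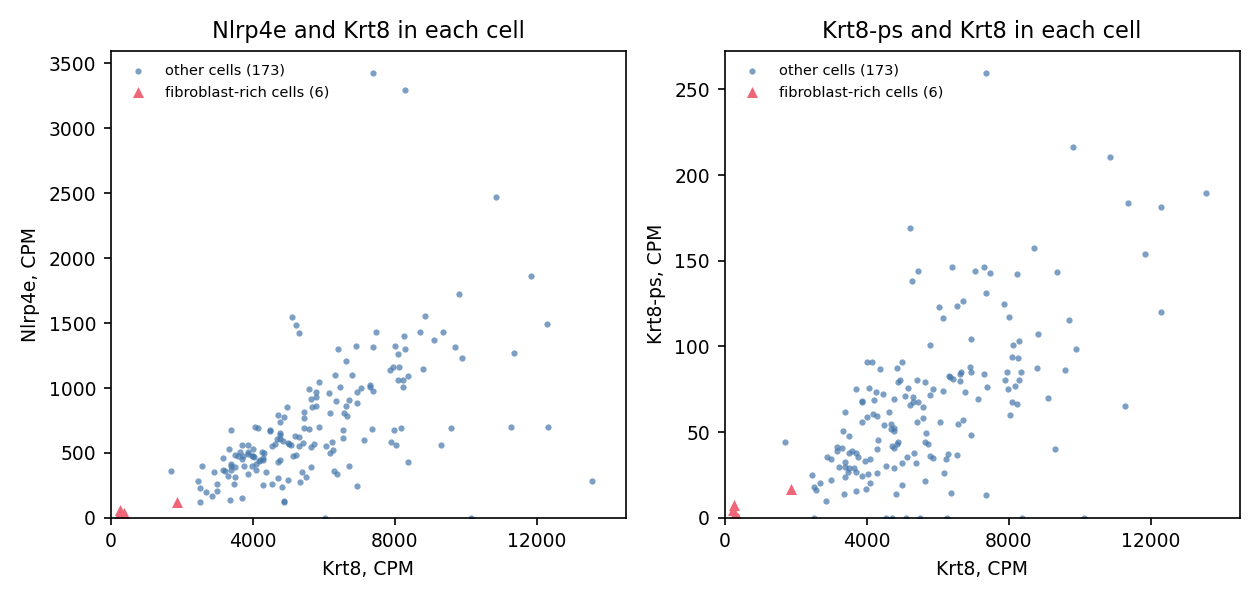
Each point is 1 cell, with Krt8 on the horizontal axis and Nlrp4e (left) or its intronic pseudogene Krt8-ps (right) on the vertical axis, all in CPM. Cells with more Krt8 tend to have more of both, and the 6 fibroblast-rich cells (triangles) lie near the origin in both.

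Copies of the other members took few counts. Krt18 has the processed pseudogenes Gm5200 (90.5% identity over 1267 aligned bases) and Gm17847 (86.5% over 1065), which had 19 and 4 UMIs in all cells. The search found no other transcript that matched a member over at least 500 bases at 85% identity or more. Antisense or overlapping genes are annotated over Krt7 (Gm671) and Krt8 (Gm36026), and no source used here says whether strand was used in counting.

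Krt8 and Krt18 are neighbours on chromosome 15 (Krt18 at chr15:102028180-102032027, plus strand), 23.7 kb apart and pointing away from each other, with 0 annotated genes between. Krt7 lies on the same chromosome (chr15:101411043-101430313, plus strand). Krt20 (chr11:99428403-99438150), Krt23 (chr11:99477974-99493137) and Krt19 (chr11:100140810-100148665) lie on chromosome 11, all on the minus strand, with Krt20 and Krt23 39.8 kb apart and 0 genes between. A stretch of 100 bases is printed for the Krt8 and Krt18 pair, which moved together most, up to the first GENCODE exon, and for Krt20, whose UMIs were concentrated in few cells, up to the RefSeq start. They come from RefSeq promoter windows (GRCm38.p6) and lie at chr15:102004483-102004582, chr15:102028080-102028179 and chr11:99438154-99438253. Capitals mark the motifs TATAAA and CANNTG on either strand.
Krt8: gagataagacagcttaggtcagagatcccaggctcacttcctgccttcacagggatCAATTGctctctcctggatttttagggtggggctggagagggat
Krt18: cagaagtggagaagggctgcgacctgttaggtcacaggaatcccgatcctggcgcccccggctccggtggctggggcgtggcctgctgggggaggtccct
Krt20: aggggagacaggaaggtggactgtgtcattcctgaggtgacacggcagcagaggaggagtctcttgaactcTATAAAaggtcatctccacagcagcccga
In Krt20 the TATAAA letters begin 29 bases before the RefSeq start. The Krt18 stretch holds neither motif, and the Krt8 stretch holds CANNTG.

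Motif counts over the 300-base windows set the members against 27025 promoters. TATAAA stood in 2 of 5 members with a window (Krt8 and Krt20) and in 14.2% of all promoters. In Krt8 these letters begin 1 base before the RefSeq start, which lies 140 bases past the end of the printed stretch. CANNTG stood in 4 of 5 (all but Krt20) and in 72.1% of all. GGGCGG stood in 1 of 5 (Krt7) and in 35.9% of all, and TGANTCA in 0 of 5 and 7.93% of all. These are matches of letters and say nothing about binding.

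The balance of type II and type I transcripts leaned to type II in nearly all cells, and varied more than expected from counting. Of 375702 UMIs of the 6 genes, 65.7% (65.6 to 65.9) were type II. Over cells the share had quartiles of 63.1 and 68.6% and a standard deviation of 5.06 points, against 1.72 expected from counting. Type II UMIs were the majority in all cells but 1. The exception was Acinar52 at 45.4% (41.8 to 49.01), the cell richest in acinar enzymes. The highest share, 89.1% in Acinar110, rested on a shallow cell of 7699 UMIs with an interval of 77.8 to 95.9%. The exact interval of 58.1% of cells left out the pooled share, with 60 cells above it and 44 below. Summed type I and summed type II levels had a Spearman rho of 0.88 over the thinned cells (all but the 18 shallow ones), and 0.87 without the 6 fibroblast-rich cells as well. The cells share a method and a depth after thinning, and no p is given for any correlation.

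Within each type the mix varied more than the balance between types. Krt7 made up 39.7% of pooled type II UMIs (39.5 to 39.9) but from 4.36% in Acinar98 to 64.4% in Acinar151. Its standard deviation over cells was 11.9 points, against 2.19 from counting. Krt19 made up 38.2% of type I UMIs (37.96 to 38.5), up to 75.9% in Acinar98, with a standard deviation of 11.8 points against 3.26 from counting. The lowest share, 5.56% in Acinar118, rested on 1 of 18 type I UMIs in a shallow cell of 8117 UMIs, with an interval of 0.141 to 27.3%. Krt20 reached 27.3% of type I UMIs in Acinar81, where it had 1107 CPM beside 1370 CPM of Krt19. In the median cell Krt20 was 0.415% of type I.

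Krt8 and Krt18 kept the tighter ratio. Krt8 over Krt18 was 1.95 in the median cell, with quartiles of 1.74 and 2.28, and 96.6% of cells were within 2-fold of the median. On the log2 scale the ratio had a standard deviation of 0.40, against 0.09 from counting. Among cells with at least 40000 UMIs it ran from 1.09 in the fibroblast-rich Acinar182 to 6.54 in Acinar68, where Krt8 had 7995 CPM and Krt18 had 1223.

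Krt7 over Krt19 had nearly the same centre and a wider spread. It was 2.05 in the median cell, with quartiles of 1.499 and 2.80, and 79.9% of cells were within 2-fold of the median. Its log2 standard deviation was 0.95, against 0.12 from counting, and Krt19 exceeded Krt7 in 20 cells. Cells with at least 40000 UMIs ran from 0.0667 in Acinar98 to 8.09 in Acinar132. Ratios within a type were a little narrower, with log2 standard deviations of 0.85 for Krt7 over Krt8 and 0.84 for Krt18 over Krt19, so Krt7 over Krt19 was the loosest of the 4 ratios. Without the fibroblast-rich cells the standard deviations were 0.40 for Krt8 over Krt18, 0.91 for Krt7 over Krt19, 0.81 for Krt7 over Krt8 and 0.85 for Krt18 over Krt19.

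**Figure D3:**
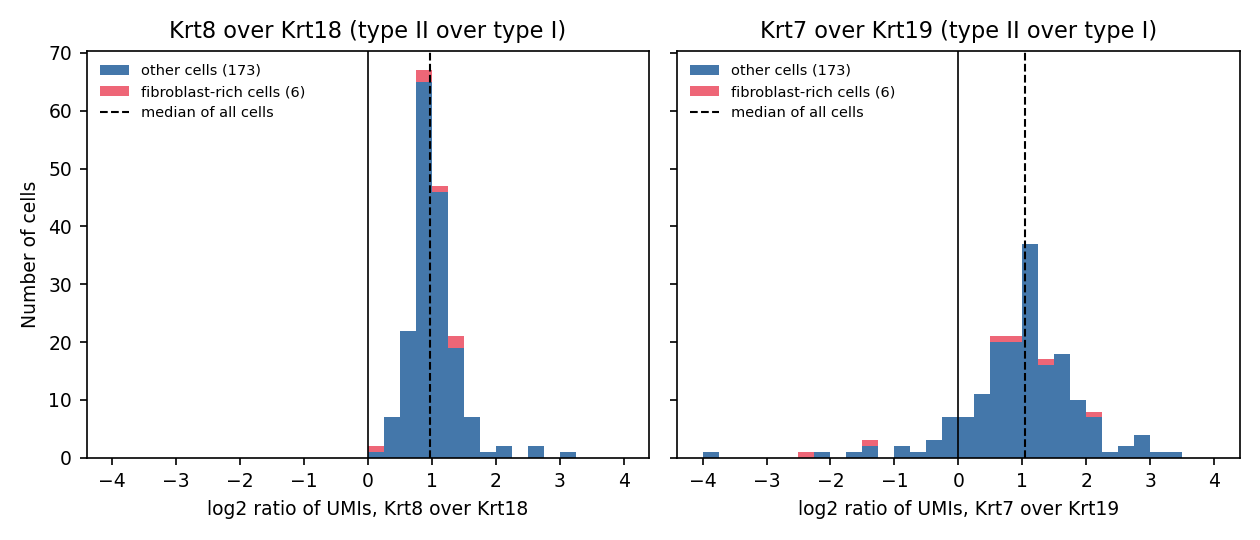
Number of cells by the log2 ratio of UMIs of the type II to the type I keratin, for Krt8 over Krt18 (left) and Krt7 over Krt19 (right), with the fibroblast-rich cells stacked on the other cells. Both have medians near 1 (2-fold, dashed), but the left has no cell below 0 and the right has 20.

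By rank correlation Krt8 was closest to Krt18, and Krt19 was closer to Krt8 than to Krt7. Krt8 and Krt18 had a rho of 0.79 over the thinned cells, and 0.76 in those that are not fibroblast-rich (in brackets for the next pairs). Krt8 and Krt19 had 0.73 (0.70), Krt7 and Krt19 0.64 (0.61), Krt7 and Krt8 0.60 (0.57), and Krt7 and Krt18 0.58 (0.54). For Krt7 and Krt19 rho was 0.73 in cells numbered up to 96 and 0.56 from 97 on. Krt8 and Krt19 were not split this way, so the order of these pairs within each part was not tested. Krt18 and Krt19, both type I, had the lowest value of the 4 abundant members, 0.47 (0.42). Krt20 ran with Krt19 at 0.57 and with Krt18 at 0.17, and Krt23 stayed between 0.15 and 0.30 with the 4 abundant members. Krt20 and Krt23 counts are sparse after thinning, which limits these values. None of the 6 had a rho with UMIs per cell outside -0.19 to 0.05. All 6 had a negative rho with the number of genes detected, from -0.12 for Krt23 to -0.44 for Krt19, and the part of this in the correlations was not tested.

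A cell was counted as losing a keratin when the upper Poisson limit of its level was under 25% of the median cell and the lower limit of its partner was above 25% of the partner's median. By that rule 96.1% of cells kept both Krt8 and Krt18, 0 lost only 1 of them, 5 lost both and 2 were undecided (Acinar98 and Acinar110). For Krt7 and Krt19, 86.6% of cells kept both, 3 lost Krt7 alone, 0 lost Krt19 alone, 5 lost both and 16 were undecided. The 5 cells that lost both were the same in each pair, and all were fibroblast-rich. The count of 3 depends on the limit: at 10% of the median 1 cell lost 1 keratin (Acinar52), and at 50% there were 16 such calls. With read counts in place of UMIs 5 cells lost 1 keratin, and among cells numbered from 97 on 1 did. Reads repeat molecules (2.32 reads per UMI over all genes), so Poisson limits on reads are too narrow and leave fewer cells undecided. The 16 calls at 50% comprised 9 for Krt7, 5 for Krt19 (Acinar31, Acinar74, Acinar104, Acinar132 and Acinar142) and 2 for Krt18 (Acinar98 and Acinar110), and 0 for Krt8. Acinar98 was also among the 9 for Krt7, so it was counted in both pairs.

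The 3 cells that lost Krt7 alone are given in turn. Acinar52 had 217 CPM of Krt7 (39 UMIs, 154.2 to 296) beside 995 CPM of Krt19, 1702 of Krt8 and 1312 of Krt18. It held 226767 CPM of acinar enzyme genes, the highest of all cells, and 0 UMIs of Krt20 and Krt23. Acinar98 had 251 CPM of Krt7 (12 UMIs, 130 to 439) beside 3767 CPM of Krt19 and 5503 of Krt8, with Krt18 at 858. Its genes of gastric pit cells, the mucous cells of the stomach surface, summed to 112222 CPM, the highest of all cells, and its acinar genes to 11865 CPM, on 47789 UMIs in total. Acinar54 had 573 CPM of Krt7 (473 to 689) and 497 CPM of Krt19, close to its own limit, beside 2684 of Krt8 and 1512 of Krt18. In Acinar54 both Krt7 and Krt19 were low, and its acinar and gastric genes summed to 106.6 and 264 CPM. In all 3 cells fibroblast genes were at 0.

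**Figure D4:**
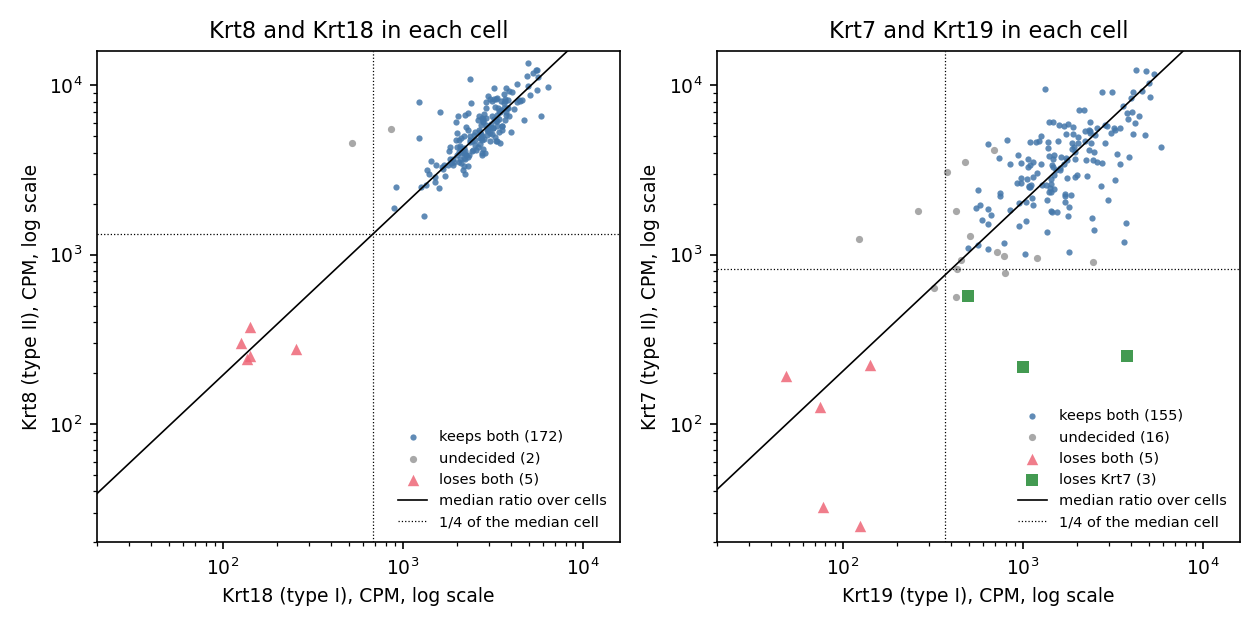
Each point is 1 cell on log axes of CPM, Krt8 against Krt18 (left) and Krt7 against Krt19 (right), with the median ratio as a line and 25% of each median dotted. The 5 cells that lose both (triangles) stand apart in each, and the 3 cells that lose Krt7 alone (squares) appear only on the right.

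In 5 of the 6 fibroblast-rich cells Krt7, Krt8, Krt18 and Krt19 were all low. Krt8 had 372.7 CPM in Acinar5, 251.6 in Acinar6, 243.8 in Acinar44, 300.5 in Acinar105, 276.6 in Acinar182 and 1879 in Acinar188. Krt18 in the same order had 140.3, 141.9, 135.97, 125.2, 254.2 and 891.6 CPM. Acinar188 stood out by keeping its keratins, with 2658 CPM of Krt7 and 970 of Krt19, although its fibroblast genes summed to 6292 CPM. The medians of the 6 cells were 289 CPM for Krt8 and 141.1 for Krt18, which is 18.8 and 19.4 times under the medians of the other cells (5418 and 2740). Krt20 had medians of 3.74 and 17.2 CPM and Krt23 of 0 and 31.3. Of 1658 genes with enough counts, 12.1% had a median in the fibroblast-rich cells of at most 25% of that in the others, and Krt7, Krt8, Krt18 and Krt19 were all among them. The type II share of the 6 cells ran from 55.4% in Acinar182 to 73.7% in Acinar5. Whether the keratin UMIs left in these cells came from free RNA or from a second cell was not tested.

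Genes most like each member were ranked by rho over the thinned cells, for 1662 genes that averaged 5 UMIs or more per thinned cell. Krt20 and Krt23 are below that level themselves. Krt7 ran with Lgals3 (0.72), which encodes galectin-3, and with S100a6 (0.67), S100a14, Krt19 and S100a10. Krt8 ran with Krt18, Nlrp4e (0.77), Krt19, S100a6 and Sprr1a (0.64), a cornified envelope precursor of stressed epithelia. Krt18 ran with Krt8, Nlrp4e (0.63), S100a10 (0.61), S100a11 (0.60) and Krt7. Krt19 ran with S100a6 (0.80), S100a14 (0.78), Phgr1, Krt8 and Mgst3. S100a6, S100a10, S100a11 and S100a14 encode small calcium-binding proteins. The share of all genes at a rho of 0.5 or more was 1.08% for Krt7, 1.14% for Krt8, 0.602% for Krt18 and 2.23% for Krt19.

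The values of the minor members were lower. Krt20 ran with Krt19 (0.57), S100a6, Phgr1, Mgst3 and 2200002D01Rik, so 4 of its 5 were Krt19 itself or among the 5 nearest genes of Krt19. For Krt20, 0.361% of genes reached 0.5. Krt23 ran with Abcc3 (0.47), which encodes an organic anion exporter, then Sprr1a, Capn5, Kmt5a and Ezr, and 0% of genes reached 0.5. Without the fibroblast-rich cells 27 of the 30 genes named for the 6 members were still among the nearest 5, and the largest move of a rho among the 30 was 0.0446.

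With the sum of genes of gastric pit cells Krt20 had a rho of 0.45 and Krt19 of 0.47, against 0.30 for Krt7, 0.26 for Krt8 and 0.06 for Krt18. Single genes of the list differed: Tff1, which encodes a trefoil peptide of gastric mucus, had 0.53 with Krt19 and 0.46 with Krt20, while Gkn1 had 0.05 and 0.20, Gkn2 -0.02 and 0.05, Tff2 0.18 and 0.20, and Muc5ac 0.20 and 0.15. Outside the fibroblast-rich set, in the 39 cells with the highest sum of those genes the median of Krt19 was 2856 CPM and that of Krt20 was 120.3, against 1201 and 10.01 in the 39 with the lowest. In the same sets Krt7 had medians of 5126 and 2869 CPM, Krt8 of 6160 and 4993, and Krt18 of 2783 and 2733. With the sum of 9 duct genes, which includes both Krt7 and Krt19, Krt7 had a rho of -0.30 and Krt19 of -0.25. Single duct genes differed here too. Spp1 had -0.38 with Krt7 and -0.40 with Krt19, and Epcam -0.05 with each. Ambp had 0.15 and 0.21, and Cldn7 0.18 and 0.10.

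Cells with more RNA of dividing-cell genes had lower medians of Krt8 and Krt18, while the medians of Krt7 and Krt19 differed less. Of 7 such genes 5 had enough counts, and all 5 had a rho of -0.3 or lower with the sum of Krt8 and Krt18, among them Mki67 (-0.39), Birc5 (-0.34), Cdk1 (-0.32), Top2a (-0.30) and Ube2c (-0.30). Over 1660 genes 1.57% were that low. From the 39 cells lowest in these genes to the 39 highest, the median of Krt8 went from 6778 to 4204 CPM and that of Krt18 from 3044 to 2326, with quartiles that overlapped. Krt7 had medians of 3433 and 3168 CPM, and its share of type II UMIs was 31.7 and 41.7% in the median cell. Mki67 had a rho of 0.01 with Krt7. For Krt19 the medians of the lowest and highest sets were 1370 and 1406 CPM, with 1802 in the second lowest. The quartiles of Krt19 were lower in the highest set, 772 and 1876 CPM, than in the lowest, 1038 and 3268. The rho of Krt19 with Mki67 was -0.23. The same sets differed in depth and complexity, with medians of 143532 and 197769 UMIs and 11139 and 12249 genes, and the part of these in the result was not tested.

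**Figure D5:**
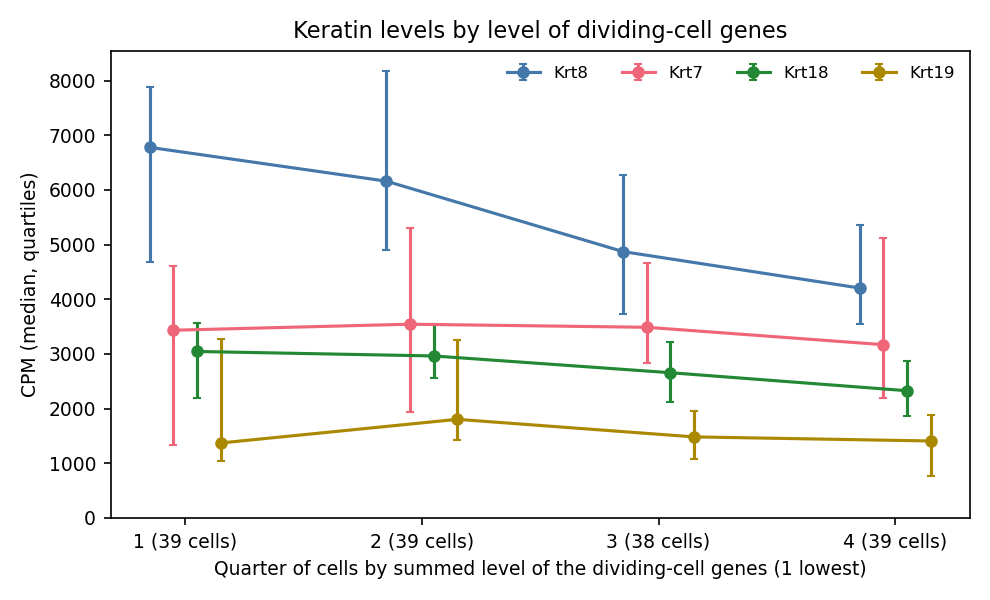
Median level in CPM (points) and quartiles (bars) of Krt8, Krt7, Krt18 and Krt19 in thinned cells outside the fibroblast-rich set, split into 4 sets by the summed level of 7 genes of dividing cells. The median of Krt8 is 6778 in the lowest set and 4204 in the highest, and the quartiles of these sets overlap for all 4 keratins.

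Genes that tie keratins to junctions varied in how many cells they were seen in, from 53.1% for Eppk1 to 98.9% for Jup. Of 15 linker and desmosome genes the highest were Dsg2 (250.1 CPM), a desmosomal cadherin, Jup (223.9), which encodes plakoglobin, Plec (200.03), the linker plectin, and Macf1 (149.1), a linker of microtubules and actin. With the sum of Krt8 and Krt18, 2 of the 4 with enough counts had a rho of 0.3 or more, Plec (0.41) and Dsg2 (0.40), while Jup had 0.17 and Macf1 -0.16. The median of the 4 was 0.29, against 0.01 over 1660 genes, of which 6.99% reached 0.3. In the 39 cells with the highest sum of the 15 genes the median of Krt8 was 7295 CPM, against 4146 in the 39 with the lowest.

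Other intermediate filament genes had UMIs in 1.12% of cells (Prph and Ina) to 100% (Lmna). Lmna (557.4 CPM) and Lmnb1 (164.5), which encode lamins of the nucleus, led the 11 listed, with a rho of 0.26 and -0.19 to the sum of Krt8 and Krt18. Vim, the vimentin gene of mesenchymal cells, had 47.9 CPM in 19 cells, and Nes had 37.7 CPM. Of 15 regulators linked to simple keratins, the highest were the zinc finger factor Klf6 (473.7 CPM), the ETS factor Ehf (308.0), Klf4 (216.2) and the AP-1 factor Jun (215.8). Of the 6 with enough counts 0 reached a rho of 0.3 with the sum of Krt8 and Krt18, where 6.99% of 1660 genes did. With 6 genes, 0 is near that share. Klf6 was just under the limit at 0.2998 and had 0.35 to Krt18 alone. Jun had -0.30 to Krt7 and 0.07 to Krt8. Of 14 genes of keratin modification and turnover, Hspa8 (1685 CPM), a chaperone, and the 14-3-3 genes Ywhaq (425.7), Ywhae (293.2) and Ywhaz (215.3) were highest. Of the 6 with enough counts 0 reached 0.3, again near the share of 6.99% over all 1660 genes.

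Other genes named Krt and a number were far below the 4 abundant members, and the first of them, Krt87, was also under Krt20 and Krt23. The 6 highest were Krt87 (49.02 CPM), Krt10 (14.7), Krt17 (14.4), Krt4 (13.4), Krt80 (7.83) and Krt14 (4.92). The pseudogene Krt8-ps was counted at 66.2 CPM, and whether reads of Krt8 are among these counts was not tested. The 10 highest cells held 95.2% of Krt4 UMIs and 82.3% of Krt17 UMIs, and Krt4, a keratin of stratified mucosa, was highest in Acinar65 with 727 CPM. Acinar65 was also the highest of all cells for Krt18.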

How the data were processed

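RNA of single cells was measured with Smart-seq3. The authors deposited raw UMI counts and raw read counts for 32100 Ensembl identifiers, cells in rows. Per the submitters' processing notes, STAR, featureCounts, GRCm38 and mm10 were used, without versions. The collapsing of UMIs and the counting of introns are not given in the sources used here. Symbols matched 31985 identifiers. Gene positions and transcript sequences were taken from GENCODE M21 (GRCm38).

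All cells had at least 1000 UMIs and were kept. No doublet caller was run, since each sample is 1 cell per the labels. Pooled levels have exact 95% Poisson intervals and shares have exact binomial ones. Correlations are Spearman's, in cells thinned to 40000 UMIs, which left out 18 cells. Scripts were tested on simulated data. Copies of members were searched with BLAST 2.17.0. Python 3.11.15, numpy 2.4.6, pandas 2.3.3, scipy 1.17.1 and matplotlib 3.10.9 were used.

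The named genes are the members, the 5 most like each, the 4 most abundant of each list, and the 6 most abundant other keratins. Nlrp4e's pseudogene, marker genes and genes of dividing cells were named after their values were seen. Members and lists were chosen with earlier results of these data known. Alternatives used read counts, other cell sets, totals, limits and thinning.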

Additional observations from a re-analysis of the deposited data

How the results depend on the processing

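The order of Krt20 and Krt23 turned in cells with title numbers from 97. With read counts, pooled levels were 4336 (Krt7), 6708 (Krt8), 3374 (Krt18), 1917 (Krt19), 95.3 (Krt20) and 64.8 (Krt23) CPM, the type II share was 66.95%, 5 cells lost 1 keratin, and rho was 0.77 for Krt8 with Krt18 and 0.66 for Krt7 with Krt19. In cells with title numbers up to 96 the levels were 3392, 5159, 2622, 1734, 93.7 and 57.9 CPM, the share 65.48%, and rho 0.77 and 0.73. From 97 on they were 3708, 5615, 2818, 1818, 71.3 and 88.2 CPM, the share 66.03%, 1 cell lost 1 keratin, and rho of Krt7 with Krt19 was 0.56. Without the fibroblast-rich cells Krt7, Krt8, Krt18 and Krt19 had 3643, 5541, 2801 and 1831 CPM, with rho of 0.76 and 0.61. With totals free of mitochondrial genes they had 3562, 5408, 2733 and 1789 CPM, with rho of 0.78 and 0.63, and with equal weight per cell 3623, 5645, 2767 and 1819 CPM. Without Acinar52 rho was 0.78 and 0.65. The Spearman correlation of Krt8 with Krt18 was 0.80 without thinning, 0.80 with another thinning draw, and 0.76 without the fibroblast-rich cells, Acinar52 and Acinar98, a set chosen after seeing the data. Pearson's r on log2 of CPM plus 25 was 0.90 and 0.72. A limit at 10% of the median gave 1 cell that lost 1 keratin, and a limit at 50% gave 16 calls, with Acinar98 counted in both pairs. Poisson limits on read counts are too narrow, since reads repeat molecules. The cause of these shifts was not tested. No paired analysis was possible because all cells form 1 group. Cells under 40000 UMIs resolve Krt20 and Krt23 poorly, since 1 UMI is then worth 25 CPM or more.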
